A study of Mus musculus with 8 samples.

Results

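Neural and neural crest genes were followed in the RNAseq of S0 cells from WT and DKO fetal livers. The 9 genes were listed, with earlier results of these data known, as markers of neural progenitors (Nes, Sox2), of neurons (Sox11, Tubb3, Dcx, Stmn2, Elavl3, Elavl4) and of migrating neural crest and its glia (Sox10), and all 9 were found among the 52636 genes of the count table. S0 cells are the least mature stage that the sort of fetal liver separates, and the paper, citing an earlier study, calls most of them erythroid precursors. They were gated as live cells negative for CD71, for Ter119 and for a cocktail of lymphoid and myeloid surface markers, in which no marker of neural, mesenchymal, endothelial or hepatic cells was included. The 4 WT and 4 DKO libraries came from embryos at E12.5 on a C57BL/6J background. DKO embryos lacked functional Vps13a, from which an exon had been removed in the whole body with a β-actin-Cre transgene after FLP recombination, and also carried the Vps13c−/− allele. They came from matings of Vps13a+/−;Vps13c−/− mice. Such matings give no embryo with WT Vps13c, so the WT embryos came from other litters. The paper describes DKO embryos at E12.5 as smaller and paler, with ears and digits behind in development. Litter and developmental delay thus cannot be told apart from genotype. VPS13A and VPS13C are proteins that move lipids between membranes at sites where organelles touch. Livers were dissected under a microscope to leave out the surrounding tissue, and poly(A) RNA of the sorted cells was amplified by template switching. The labels do not say that each library came from its own embryo, so p-values measure only the spread between these libraries.

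In the embryo, SOX2 keeps neural progenitors dividing, and nestin, encoded by Nes, is an intermediate filament protein of the same cells. As neurons form, SOX11 acts on neuronal genes, and young neurons make the neuronal β-tubulin Tubb3, the microtubule-binding proteins doublecortin (Dcx) and stathmin-2 (Stmn2), and the RNA-binding proteins HuC (Elavl3) and HuD (Elavl4). Neural crest cells leave the dorsal neural tube, keep SOX10 while they migrate, and give rise to peripheral neurons and glia. Nes and Sox11 are not limited to neural cells, since Nes is also made by endothelial and muscle precursors and Sox11 by embryonic mesenchyme.

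Sox11 and Dcx were higher in DKO than in WT S0 cells, by 3.82 and 4.66 on the log2 scale, and both kept this call without DKO replicate 1, while Dcx lost it without WT replicate 4. The other 7 genes did not pass the test or were too scarce for it, and 8 of the 9 genes had more than 50% of their DKO counts in 1 library, DKO replicate 1, which held 25.0% of all counts of the DKO group.

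The sequences just upstream of 3 genes are given because these were the tested genes whose DKO libraries all lay above the WT libraries (Sox11, Dcx and Elavl4). Each window runs 5′ to 3′ on the gene's own strand, from 250 bases before to 50 bases after a start annotated by RefSeq on GRCm38.p6. Capitals mark E boxes (CANNTG), the words bound by neurogenic bHLH factors among many others, and SOX cores (ACAAAG or ACAAT) on either strand.
Sox11, minus strand, chr12:27342669-27342968: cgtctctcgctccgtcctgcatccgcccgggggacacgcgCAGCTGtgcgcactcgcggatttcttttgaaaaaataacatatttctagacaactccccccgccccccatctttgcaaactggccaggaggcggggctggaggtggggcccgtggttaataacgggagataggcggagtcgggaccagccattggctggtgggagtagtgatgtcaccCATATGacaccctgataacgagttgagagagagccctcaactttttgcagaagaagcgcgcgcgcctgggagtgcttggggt
Dcx, minus strand, chrX:143933075-143933374, 1 of 2 annotated starts: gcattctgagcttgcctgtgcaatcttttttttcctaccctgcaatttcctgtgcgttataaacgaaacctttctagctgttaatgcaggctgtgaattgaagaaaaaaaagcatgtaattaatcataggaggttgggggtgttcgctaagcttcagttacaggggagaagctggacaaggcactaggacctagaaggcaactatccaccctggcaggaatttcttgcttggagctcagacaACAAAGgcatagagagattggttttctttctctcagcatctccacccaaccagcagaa
Elavl4, minus strand, chr4:110287462-110287761, 1 of 4 annotated starts: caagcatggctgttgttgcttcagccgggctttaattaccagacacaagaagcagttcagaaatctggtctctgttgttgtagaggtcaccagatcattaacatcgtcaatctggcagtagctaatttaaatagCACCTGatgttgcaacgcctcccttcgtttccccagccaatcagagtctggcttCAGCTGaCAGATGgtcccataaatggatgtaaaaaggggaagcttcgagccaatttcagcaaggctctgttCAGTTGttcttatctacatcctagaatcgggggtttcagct
The Sox11 window held 21 CpG pairs and 2 E boxes, one of them CAGCTG, and no SOX core. The Dcx window held 3 CpG pairs, 1 ACAAAG and 1 TATAAA, and no E box. The Elavl4 window held 6 CpG pairs and 4 E boxes, among them CAGCTG and CAGATG. The windows of the other annotated starts differ, with no SOX core in the second Dcx window and 1, 4 and 0 E boxes in the other 3 Elavl4 windows. Of 32851 RefSeq windows of the same 300 bases, 72.3% held an E box, 16.3% CAGCTG, 17.2% CAGATG, 18.7% ACAAAG, 31.0% ACAAT and 13.6% TATAAA, and the median window had 7 CpG pairs. Windows were found for 7 of the 9 genes, without Stmn2 and Sox10. Among these 7, the left and right parts of the RE1 element that the repressor REST binds were searched on both strands as TTCAGCACC, found in 0.4% of all windows and in none of these, and as GGACAG, found in 22.2% of all windows and once, in the window of Tubb3. These matches describe letters only.

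The counts behind these values summed to 42114489 to 50886469 per WT library and 36981439 to 42587815 per DKO library, and 3 counts in a library equalled 0.059 to 0.0811 CPM (counts per library size). Normalized counts are scaled to the mean effective (TMM-adjusted) size of the 8 libraries, 43914336. Vps13a, the targeted gene, had 607 to 1039 normalized counts per DKO library against 1825 to 2109 per WT library (log2 fold change -1.29 ± 0.17 SE, edgeR adjusted p = 0.00247), while Vps13c over its whole length did not pass the test (0.49 ± 0.24 SE, adjusted p = 0.182) and checks nothing about its allele. Xist RNA, made in female cells, was at 0 to 30.1 normalized counts in WT and at 27040, 18030, 62.3 and 21390 in DKO replicates 1 to 4, and the Y-linked Ddx3y was at 2911 to 3354 in WT and at 2516 in DKO replicate 3 but at 9.40 to 41.0 in the other DKO libraries. By these RNAs the 4 WT libraries were male and 3 of the 4 DKO libraries female, so that sex and genotype cannot be told apart except in DKO replicate 3, whose values are therefore also given alone. Erythroid Klf1 averaged 12310 normalized counts in WT against 12790 in DKO, and Hba-a1, an α-globin, 13830 and 17910. Hepatoblast RNA was more abundant than either in all libraries, with Afp at 305500 and 239900 and Trf at 214900 and 121200.

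Sox11 was the most strongly expressed of the 9 genes in DKO. Sox11 (ENSMUSG00000063632.6, GRCm38 chromosome 12, 27334264 to 27342574, minus strand) had 189, 145, 350.1 and 324 normalized counts in the 4 WT libraries and 10110, 1238, 1475 and 1435 in the 4 DKO libraries. Every DKO library was thus above every WT library, and the first DKO library stood apart from the other three, which lay close together. Group means (± SD, n = 4) were 252 ± 101 for WT and 3564 ± 4365 for DKO, and edgeR gave a log2 fold change of 3.82 (SE 0.76, adjusted p = 0.00941). With DKO replicate 1 left out, it was 2.46 (SE 0.29, adjusted p = 0.00127), with a mean of 1382 ± 127 over the 3 libraries left. DKO replicate 3, the only DKO library with Y-linked RNA, had 1475 normalized counts and lay above the 4 WT libraries, which as 1 library allows no test of its own.

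Dcx was scarce in WT and present in each DKO library. Dcx (ENSMUSG00000031285.14, minus strand of chromosome X from 143855842 to 143933311) had 16, 0, 11 and 5 counts as deposited in WT and 456, 31, 170 and 52 in DKO, or 16.8, 0, 9.56 and 4.37 against 479, 36.0, 208 and 54.3 normalized counts. The groups did not overlap, and DKO replicates 1 and 3 were the highest of the 8 libraries. The log2 fold change was 4.66 (SE 1.12, edgeR adjusted p = 0.0185), and it was 3.69 (SE 1.01, adjusted p = 0.0305) without DKO replicate 1. The call rested in part on a WT library, because the adjusted p was 0.0641 (log2 fold change 4.47) without WT replicate 4. DKO replicate 3, with Y-linked RNA, had 208 normalized counts, above the WT maximum of 16.8.

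Elavl4, whose product stabilizes neuronal mRNAs, had the smallest separation of the 3 tested genes without overlap. Elavl4 (ENSMUSG00000028546.17, minus strand of chromosome 4 from 110203722 to 110351909) had 34.6, 36.2, 56.5 and 62.1 normalized counts in WT against 387, 62.8, 92.8 and 82.5 in DKO. DKO replicate 2 was thus just above WT replicate 4, and the gene was not called (log2 fold change 1.72, SE 0.61, edgeR adjusted p = 0.0716). It was 0.75 (adjusted p = 0.198) when DKO replicate 1 was left out.

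Nes and Tubb3 were the most abundant of these genes in WT per exon length, while in normalized counts Sox11 lay between them. Nes (ENSMUSG00000004891.16, plus strand of chromosome 3 from 87971078 to 87980451) had 576, 554, 778 and 399 normalized counts in WT against 2139, 679, 949.9 and 973 in DKO. WT replicate 3 lay above DKO replicate 2, so the groups overlapped, and the gene was not called (log2 fold change 1.04, SE 0.35, edgeR adjusted p = 0.0599, and 0.59 with adjusted p = 0.102 without DKO replicate 1). Tubb3 (ENSMUSG00000062380.4, plus strand of chromosome 8 from 123411424 to 123422015) had 123, 78.3, 87.7 and 141 normalized counts in WT against 533, 121, 186 and 131 in DKO. Except for DKO replicate 1 and, by less, DKO replicate 3, the DKO libraries lay within the range of WT (log2 fold change 1.18, SE 0.50, adjusted p = 0.121, and 0.44 with adjusted p = 0.348 without DKO replicate 1).

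The other 4 genes were removed by the filter on low counts and have no adjusted p. Sox2 (ENSMUSG00000074637.7, plus strand of chromosome 3 from 34650405 to 34652461) had 0 counts in every WT library and 94, 8, 1 and 6 counts in DKO. Pooled over the 4 DKO libraries, its counts per effective library size were at least 44.7-fold higher than the level that 3 counts over the 4 WT libraries allow, and at least 8.37-fold higher without DKO replicate 1. Sox2 lies inside Sox2ot, a long noncoding RNA gene on the same strand with which it shares no exon base in the annotation. Sox2ot had 100 counts in DKO replicate 1, none in the other DKO libraries and 0 to 5 in WT. Reads of genes that overlap are uncertain. The strand setting of the counting was not stated, and it could not separate reads of genes on the same strand.

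Stmn2, which regulates microtubules in growing axons, lay on the plus strand of chromosome 3 from 8509360 to 8561606 (ENSMUSG00000027500.10) and had 0, 0, 13 and 5 counts in WT and 101, 7, 0 and 16 in DKO. Elavl3 (ENSMUSG00000003410.8, minus strand of chromosome 9 from 22015005 to 22052023) had 7, 0, 12 and 4 counts in WT and 118, 0, 0 and 11 in DKO. Sox10 (ENSMUSG00000033006.9, minus strand of chromosome 15 from 79154908 to 79165240) had 0, 0, 13 and 7 counts in WT and 347, 3, 7 and 6 in DKO. All 3 genes overlapped between the groups, and outside DKO replicate 1 they had 0 to 16 counts in DKO beside 0 to 13 in WT. For Elavl3 the mean of the other 3 DKO libraries, 3.83 normalized counts, was below the WT mean of 5.31.

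**Figure D1:**
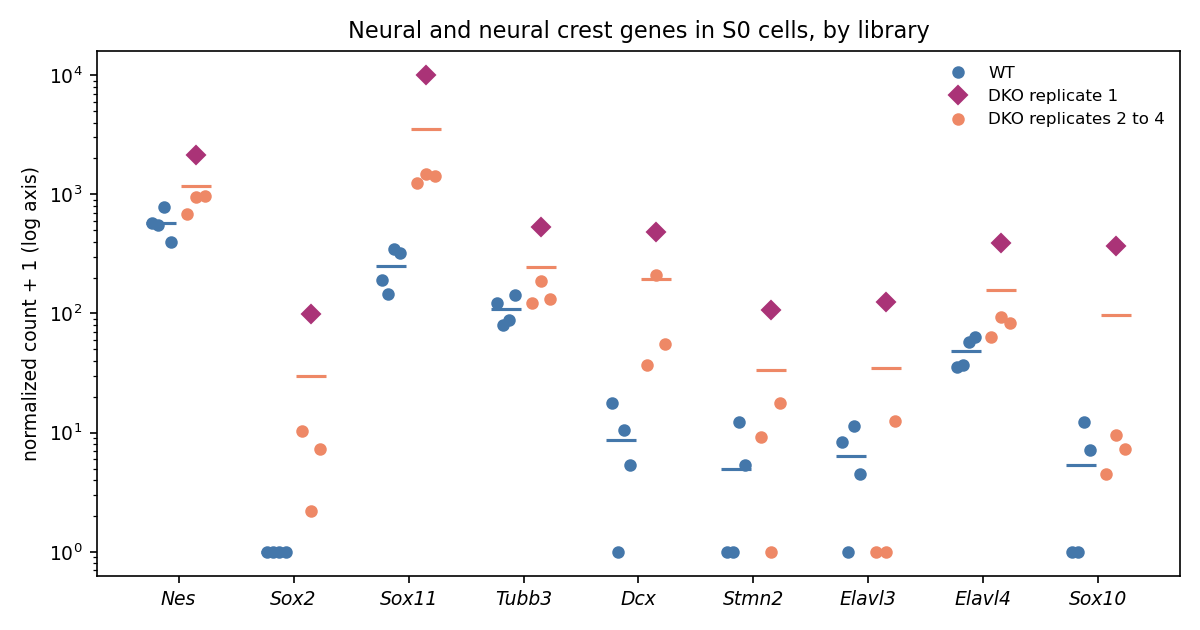
Normalized counts plus 1 (log axis) of the 9 genes in each WT library (blue circles), in DKO replicate 1 (purple diamonds) and in DKO replicates 2 to 4 (orange circles), with short lines at the group means. DKO replicate 1 was the highest of the 8 libraries for all 9 genes, beside 24.2% of all genes tested. Sox11, Dcx, Elavl4 and Sox2 were the genes whose groups did not overlap.

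Counted over the comparison of all genes, 5 of the 9 genes passed the filter, against 17378 of 52636 genes in the table, and all 5 had a positive log2 fold change. Of these 5, 2 were called higher in DKO, at an adjusted p below 0.05 with a log2 fold change above 1, beside 6.19% of all genes tested, and 0 were called lower (edgeR), beside 2.43%. At an unadjusted p under 0.05, all 5 were higher, beside 18.4% of genes tested, and none lower, beside 17.8%. DKO libraries lay above all WT libraries for 3 of the 5, beside 13.5% of genes tested. Dcx is in each of these counts of higher genes, and it passed the filter through its DKO counts (31 to 456, beside 0 to 16 in WT). A gene that enters the test in this way is bound to be higher in DKO. Without DKO replicate 1, the same 2 genes, Sox11 and Dcx, were called higher, beside 4.79% of the 17798 genes then tested. In exact permutation tests of each gene over 70 arrangements of the libraries (two-sided), Sox2, Sox11, Dcx and Elavl4 gave p = 0.0286, the smallest that 4 against 4 allow, Nes 0.0571, Tubb3 0.143, Stmn2 0.2, Sox10 0.229 and Elavl3 0.743.

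**Figure D2:**
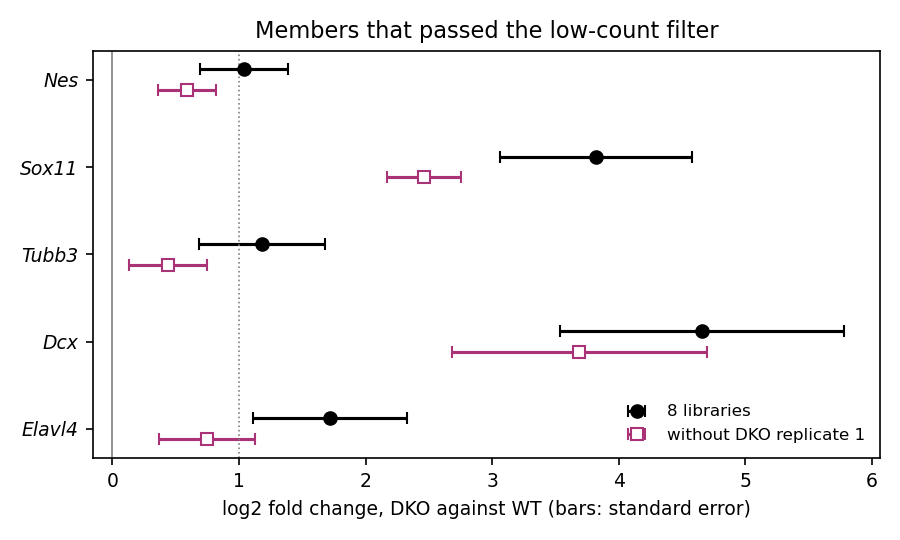
Log2 fold change of DKO against WT (x axis) for the 5 genes that passed the low-count filter, with all 8 libraries (black circles) and without DKO replicate 1 (open purple squares). Bars are standard errors and the dotted line marks a log2 fold change of 1. All 5 estimates were smaller without DKO replicate 1, and those of Sox11 (2.46) and Dcx (3.69) stayed above the line.

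The share of a gene's DKO counts that came from DKO replicate 1 was 47.0% for Nes, 57.1% for Tubb3, 63.8% for Elavl4, 64.3% for Dcx and 72.5% for Sox11. The filter removes genes that reach its count level in few libraries, so a high share is favoured among the genes below it. For these genes the share was 81.5% for Stmn2 (exact Clopper-Pearson 95% interval 73.5 to 87.9%), 86.2% for Sox2 (78.3 to 92.1%), 91.5% for Elavl3 (85.3 to 95.7%) and 95.6% for Sox10 (92.9 to 97.5%). These intervals cover counting error only. In bulk RNA, fewer cells of a type and less RNA per cell cannot be told apart.

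Summed over the 9 genes, the normalized counts were 946, 813, 1315 and 943 in WT and 14340, 2157, 2920 and 2716 in DKO. Group means (± SD, n = 4) were 1004 ± 216 for WT and 5534 ± 5881 for DKO, a ratio of 5.51 that was 2.59 without DKO replicate 1. Sox11 made up 25.1% of the sum in WT and 64.4% in DKO, while Nes made up 57.4% and 21.4%. Without Sox11 the sums were 757, 669, 965 and 619.8 in WT and 4231, 919, 1446 and 1281 in DKO, so that DKO replicate 2 fell below WT replicate 3 and the groups overlapped.

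Levels were compared between genes per exon length, in TPM (transcript abundance scaled to the same total in each library) computed here from the counts and the union of exons. In WT the order of mean TPM was Nes (5.72), Tubb3 (3.67), Sox11 (1.92), Elavl4 (0.559), Sox10 (0.0896), Elavl3 (0.0487), Stmn2 (0.0438), Dcx (0.0386) and Sox2 (0). Nes and Tubb3 overlapped in their WT range, as did the 5 scarcest genes among themselves, whereas neighbours from Tubb3 to Sox10 did not overlap. In DKO the order was led by Sox11 (26.3), followed by Nes (11.1), Tubb3 (7.84), Sox10 (1.97), Elavl4 (1.76), Dcx (0.933), Sox2 (0.876), Stmn2 (0.363) and Elavl3 (0.309). The order below Tubb3 rested on DKO replicate 1. Without it the means were 9.49 for Sox11, 7.72 for Nes, 4.45 for Tubb3, 0.841 for Elavl4, 0.446 for Dcx, 0.156 for Sox2 and 0.114 for Sox10, and with the length of the longest transcript in place of the union of exons Elavl4 (1.71) came before Sox10 (1.63) with all 4 libraries. DKO replicate 1 had 76.9 TPM of Sox11, 21.1 of Nes and 7.56 of Sox10.

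The ratio of a pair of genes within a library does not depend on how libraries are scaled. The ratio of Sox11 to Nes in TPM was 0.253, 0.201, 0.347 and 0.626 in WT and 3.65, 1.41, 1.20 and 1.14 in DKO. Nes was thus the more abundant of the pair in every WT library and Sox11 in every DKO library, DKO replicate 1 included. The ratio of Sox11 to Tubb3 was likewise 0.346 to 0.897 in WT and 1.79 to 4.27 in DKO. Tubb3 to Nes did not separate the genotypes, with 0.387 to 1.21 in WT and 0.461 to 0.855 in DKO.

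Of the relatives of these genes, most did not pass the test, among them abundant genes that many dividing cells use. Of 25 relatives listed, 17 passed the filter, 5 were called higher and 0 lower (edgeR), and their median log2 fold change was 0.06, beside 0.03 over all genes tested. Of all genes tested, 6.19% were called higher and 2.43% lower. Without DKO replicate 1, 3 relatives were called (Sox8, Tubb2b and Dclk1). In the Elavl and Stmn families no relative was called. Elavl1, the widely made HuR, had 11530 to 13700 normalized counts in WT against 9408 to 12200 in DKO (log2 fold change -0.29, adjusted p = 0.0824), while Elavl2, made in neurons, had 17.2 to 54.5 and 36.6 to 350.9 (1.90, adjusted p = 0.0924). Stmn1 was lower in every DKO library, at 34740 to 36460 normalized counts in WT against 21600 to 28320 in DKO (log2 fold change -0.52, SE 0.09, adjusted p = 0.00531), which is short of the fold threshold. Stmn3 and Stmn4 had 0 counts in WT and at most 15.1 and 60.9 normalized counts in a DKO library.

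Among β-tubulins, Tubb2b was the relative that was called. Tubb2b, made in neurons and progenitors, had 74.4 to 139 normalized counts in WT against 187 to 989 in DKO (mean 4.01-fold higher, adjusted p = 0.0246). Tubb4a had a log2 fold change of 1.58 (adjusted p = 0.0746). Tubb5, the main β-tubulin of these cells with 85070 to 90150 normalized counts in WT against 73590 to 89390 in DKO, had -0.14, and Tubb4b, Tubb1, Tubb6 and Tubb2a had -0.27, -0.22, -0.10 (0.01 with upper-quartile scaling) and 0.06, none of them past the test. Of the kinases that share the doublecortin domain, Dclk1 was higher in DKO, at 126.7 to 890.0 normalized counts against 6.89 to 49.5 in WT (log2 fold change 3.84, SE 0.80, adjusted p = 0.0112), and Dclk2 was not called (-0.15, adjusted p = 0.852). Vim, the filament protein that assembles with nestin, had a log2 fold change of 0.32 (adjusted p = 0.085), and Ina and Synm were below the filter.

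Of the SOXC group, Sox4, Sox11 and Sox12, Sox4 was the most abundant in WT, with 4369 to 4808 normalized counts in WT against 2986 to 5433 in DKO, and it was not called (log2 fold change -0.21, SE 0.16, adjusted p = 0.387). Sox12 was called higher by a smaller step than Sox11, with 544 to 869.6 normalized counts in WT against 1113 to 2056 in DKO (log2 fold change 1.06, SE 0.23, adjusted p = 0.0137). Without DKO replicate 1 the Sox12 log2 fold change was 0.80 (adjusted p = 0.0123), short of the fold threshold. Within a library the TPM ratio of Sox11 to Sox4 was 0.0173 to 0.0445 in WT and 1.07, 0.185, 0.241 and 0.277 in DKO. Of the SOXE relatives of Sox10, Sox8 had 0 to 10.5 normalized counts in WT against 52.3 to 146 in DKO (log2 fold change 4.71, SE 1.07, adjusted p = 0.0154), and Sox9 had 127 to 497 and 453 to 1139 (1.60, SE 0.45, adjusted p = 0.0329, and 0.0558 without DKO replicate 1) with groups that overlapped. Sox8 thus had counts in each DKO library while Sox10 was near 0 outside DKO replicate 1. Of the SOXB relatives of Sox2, Sox1 and Sox14 had 0 counts in all 8 libraries, and Sox3 and Sox21 were below the filter.

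**Figure D3:**
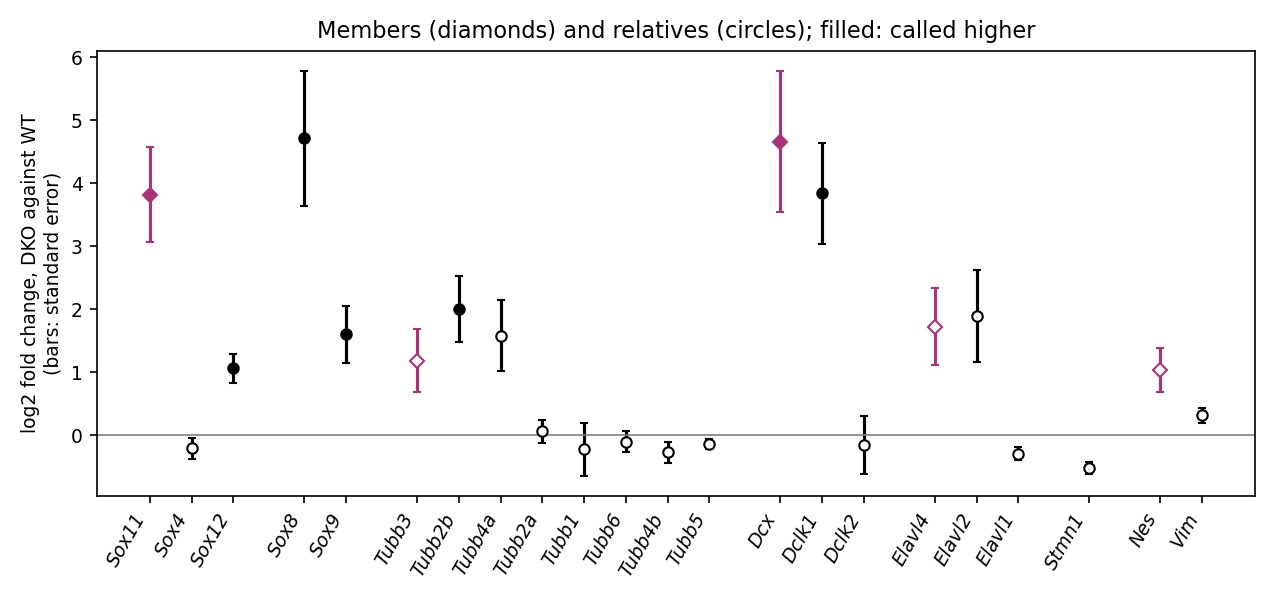
Log2 fold change of DKO against WT (y axis, bars are standard errors) for the tested members (purple diamonds) and the tested relatives (black circles), grouped by family. Filled symbols were called higher, and open symbols were not called. In the Sox, tubulin and doublecortin families called genes stood beside relatives near 0, such as Sox12 (1.06) and Sox4 (-0.21).

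Other neural genes were counted to see how far the 9 stood for their class. Of 25 further neuronal genes, 19 were tested, 10 were called higher and 0 lower, and the median log2 fold change was 2.79. Over all genes tested, 6.19% were called higher and 2.43% lower, with a median of 0.03. Map1b, a microtubule-binding protein of growing axons, had 68.9 to 261 normalized counts in WT against 939 to 4558 in DKO (log2 fold change 3.45, adjusted p = 0.00683), and Nefl, the light neurofilament protein, had 0 to 18.4 and 70.8 to 1279 (5.68, adjusted p = 0.00749). Genes as scarce in WT as Nefl passed the filter through their DKO counts, which favours a call of higher. Nsg1, a protein of neuronal endosomes, and Dpysl3, which acts on the growth cone, had log2 fold changes of 3.42 and 3.32 (adjusted p = 0.0101 and 0.014). Named after their values were seen, the scarce synaptic genes Syt1 and Syp had log2 fold changes of 3.40 and 0.74. They did not pass the test (edgeR adjusted p = 0.145 and 0.456). Snap25 was below the filter, with 54 counts in DKO replicate 1 and 0 to 5 in the other libraries. Without DKO replicate 1, 7 neuronal genes were called and the median was 1.92.

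Of 19 further progenitor genes, 9 were below the filter, 10 were tested, 3 were called higher and 0 lower, and the median log2 fold change was 1.90. Over all genes tested the shares were 6.19% and 2.43% and the median 0.03. The 3 called genes were Gli3, a Hedgehog effector also made in limb and gut mesenchyme (2.13, adjusted p = 0.0251), Lhx2, a LIM homeobox factor also made in liver stellate cells (3.64, adjusted p = 0.0402), and Msi1, an RNA-binding protein (1.68, adjusted p = 0.0451). Lhx2 had 0 to 44.3 normalized counts in WT against 62.7 to 360 in DKO. It passed the filter through its DKO counts, which favours a call of higher. Sox1, Neurog2, Olig2, Otx2 and Zic1 had 0 counts in all 8 libraries. Notch1, on the same list, named after its values were seen and active in blood precursors too, was lower in every DKO library (log2 fold change -0.87, adjusted p = 0.0251), short of the fold threshold. Without DKO replicate 1 the number called was 1, Gli3, and the median 1.12.

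Of 21 neural crest and glial genes, 14 were tested, 7 were called higher and 0 lower, with a median log2 fold change of 2.81. The shares over all genes tested were 6.19% and 2.43%, with a median of 0.03. Ngfr, a neurotrophin receptor of crest cells that liver mesenchyme also makes, had 40.8 to 145 normalized counts in WT against 240.5 to 1599 in DKO (3.16, adjusted p = 0.012). Hand2, a factor of sympathetic neurons and of heart and limb mesenchyme, had 0 to 24.1 and 54.9 to 736 (4.39, adjusted p = 0.0252). Hand2, Sox8 and Twist1 passed the filter through their DKO counts, which favours a call of higher. Other calls included Sox8, Sox9, Twist1 and Snai2, the last 2 named after their values were seen and also made in mesenchyme. All 14 tested genes were highest in DKO replicate 1, beside 24.2% of all genes tested. Without that library 3 of the 14 were called, with a median of 1.51. Hand2 (adjusted p = 0.0501), Sox9, Twist1 and Snai2 were not among these. Chosen after their values were seen, 2 enzymes of the sympathoadrenal lineage were close to absent outside DKO replicate 1. Th, the first enzyme of catecholamine synthesis, had 98 counts in DKO replicate 1 and 0 in the other 7 libraries, and Dbh, a later enzyme of the same pathway, had 244 normalized counts there, 18.6 in DKO replicate 2 and 0 in the rest.

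REST, the factor that holds neuronal genes off in other cells, was measured at the RNA level only. Rest had 2864 to 3785 normalized counts in WT against 2853 to 4132 in DKO (log2 fold change 0.02, SE 0.13, adjusted p = 0.931). Of 10 genes of its complex none was called in either direction by edgeR, and at adjusted p alone 3 were higher and 2 lower. Over all genes tested, 6.19% were called higher and 2.43% lower, and 1867 and 1878 of 17378 passed at adjusted p alone. With 10 genes, the absence of calls is near these shares. Hdac1, the most abundant of the 10, fell by 0.28 on the log2 scale (adjusted p = 0.021), with 11260 to 12910 normalized counts in WT against 10000 to 10390 in DKO. Ehmt2, the next most abundant, was higher by 0.40 on the log2 scale (adjusted p = 0.00578).

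Markers of other cells that the gate could hold were counted beside these values. Over all genes tested, 6.19% were called higher and 2.43% lower, with a median log2 fold change of 0.03. Of 14 mesenchymal genes, all 14 were tested and 13 were called higher in DKO (median log2 fold change 2.83), and 12 of them without DKO replicate 1 (median 2.28). They included Dcn (2.25, adjusted p = 0.00124), Col1a2 (3.03, adjusted p = 0.00384), the muscle and stellate cell filament Des (3.38, adjusted p = 0.00582) and Pdgfra (3.48, adjusted p = 0.00683). Twist2 and Tcf21, named after their values were seen, were also called and had 0 to 4.30 and 2.09 to 32.4 normalized counts in WT. Both passed the filter through their DKO counts, which favours a call of higher. The summed level of the mesenchymal list was 2375 to 6432 normalized counts in WT against 52130, 14160, 16630 and 23300 in DKO, so DKO replicate 1 was the highest here as well, and none of its genes was at 0 in all libraries. Of 10 muscle genes, 9 were tested and 4 called higher (Tnnt2, Actc1, Myf5 and Myog, also 4 without DKO replicate 1), with sums of 886 to 1584 in WT and 5074, 2289, 5787 and 3430 in DKO, where replicate 3 and not replicate 1 was the highest.

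In the other lists no gene was called higher in DKO, where 6.19% of all genes tested were called higher and 2.43% lower. Of 15 hepatoblast genes 0 were called in either direction (median log2 fold change -0.49), of 11 endothelial genes tested 0 were called higher and Pecam1 was called lower (-1.14, adjusted p = 0.0126), and of 8 macrophage genes tested Adgre1 was called lower (-2.99, adjusted p = 0.0383) and none higher. Without DKO replicate 1, Pecam1 was short of the fold threshold (-0.92, adjusted p = 0.00226) and Adgre1 of the test (adjusted p = 0.054), while Emcn, Csf1r and C1qb, named after their values were seen, were then called lower. Of 14 erythroid genes 0 were called in either direction by edgeR (median 0.05), and 2 had an adjusted p under 0.05, both higher. Summed levels were 712600 to 967400 normalized counts in WT against 215600 to 820100 in DKO for hepatoblast genes, and 56940 to 83390 and 44860 to 99210 for erythroid genes. DKO replicate 1, the highest library for the neural genes, was within the range of the other DKO libraries in both. Its macrophage sum, 2504, was also within their range of 1369 to 4383. Its endothelial sum, 9592, was below the 13640 to 16590 of the other DKO libraries.

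The neuronal and crest lists had summed levels of 728 to 1094 and 1042 to 1760 normalized counts in WT. In DKO replicates 1 to 4 these were 16970, 2952, 3085 and 3678 for the neuronal list and 11940, 2335, 2859 and 3431 for the crest list. The first value was the highest in both, and the others lay above every WT library. The progenitor list differed, with sums of 2145 to 2545 in WT and of 4303, 1928, 1732 and 2013 in DKO, so that 3 of the 4 DKO libraries lay below every WT library. In WT this sum was mostly Notch1 (mean 1516, and 832 in DKO) and Prom1, named after its values were seen (582 and 412). These were the 2 tested genes of the list with a negative log2 fold change, beside 8 with a positive one. Without DKO replicate 1, 6 were positive. Set against Col3a1, a mesenchymal collagen chosen after its values were seen, the TPM ratio of Sox11 was 0.349, 0.603, 0.382 and 0.430 in WT and 0.997, 0.560, 0.559 and 0.342 in DKO, with DKO replicate 1 above and DKO replicate 4 just below the WT values. For Nes the ratio to Col3a1 was 0.686 to 2.99 in WT and 0.273 to 0.466 in DKO, lower in every DKO library. The part of mesenchymal or other cells in the level of Sox11 was not tested.

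**Figure D4:**
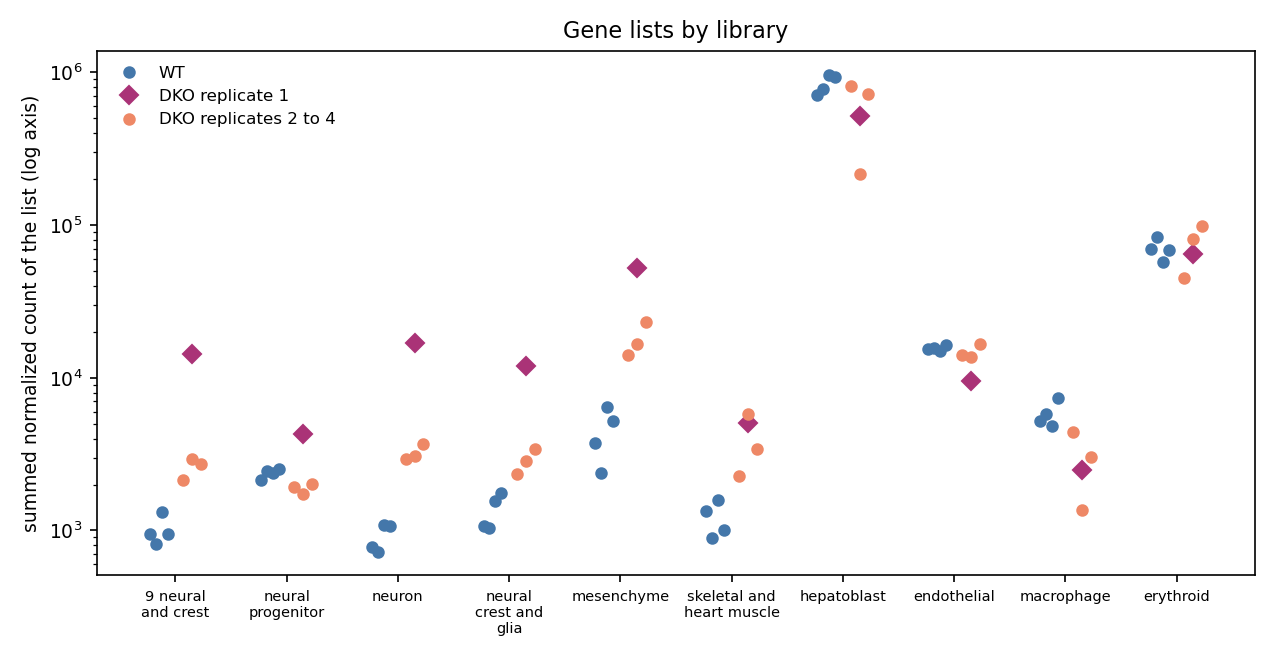
Summed normalized counts (log axis) of the 9 genes and of 9 lists of marker genes in each WT library (blue circles), in DKO replicate 1 (purple diamonds) and in DKO replicates 2 to 4 (orange circles). The 9 genes, the neuronal, crest, mesenchymal and muscle lists were higher in every DKO library than in WT, and the macrophage list was lower in every DKO library. The sum of the progenitor list, which in WT was mostly Notch1 and Prom1, was lower in all DKO libraries but replicate 1. The hepatoblast, endothelial and erythroid lists overlapped.

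The genes whose levels followed the tested members most closely within the genotypes were found over the 8 libraries. The measure was Pearson's r between a gene's deviation from its genotype mean and the mean standardized deviation of the 5 tested members, which was 1.84 in DKO replicate 1 and between -1.03 and 0.42 in the other libraries. These 8 points share library depth and lean on DKO replicate 1, and r is a description. The 10 highest were Gm19412 (0.996), Camk2g (0.994), Pgm5 (0.989), Gbp6 (0.982), Obsl1 (0.981), Plpp3 (0.979), Megf6 (0.979), R74862 (0.977), Pls3 (0.975) and Cdh11 (0.973). Without DKO replicate 1, r was 0.82 to 0.97 for these 10 genes, which had been picked with all 8 libraries. Of these, Pgm5 (log2 fold change 4.76, adjusted p = 0.00531), Gbp6 (2.77, adjusted p = 0.022) and Cdh11, a cadherin of mesenchyme (3.81, adjusted p = 0.00582), were also called higher in DKO.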

How the data were processed

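RNAseq counts of S0 cells from 4 WT and 4 DKO samples were analysed. The authors trimmed reads with fastp 0.21.0, mapped them to mm10 with HISAT2 2.2.1, removed alignments of low mapping quality, and deposited counts per gene made with StringTie 1.3.3b and its prepDE script, not normalized and not pooled. prepDE works back from coverage, so low counts are approximate. The strand setting is not given in the sources used here. Gene identifiers were matched to GENCODE symbols of GRCm38 with the version ignored (52489 of 52636).

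Counts were filtered with filterByExpr, scaled by TMM and compared with the robust quasi-likelihood test of edgeR 4.0.16 in R 4.3.3, with Benjamini-Hochberg adjustment over 17378 genes and no covariate. Calls needed an adjusted p below 0.05 and a log2 fold change above 1 or below -1. Permutation tests used log2 CPM with a prior count of 0.5. A floor of 3 counts, exact binomial intervals and TPM over the union of exons were computed. Promoter windows came from RefSeq. The same steps were tested on simulated counts. Libraries of a genotype differed by more than counting error.

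Genes named were the 9 members, their relatives, Vps13a, Vps13c, Xist, Ddx3y, Rest, the 10 genes most alike, and from each list up to 4 called genes by smallest adjusted p or else the 2 most abundant; others were named after their values were seen, and some list genes are not reported here. Members and lists were chosen with earlier results of these data known. Alternatives were DESeq2 1.42.0, other scalings and filters, each library left out, a replicate block and no fold threshold; fits without DKO replicate 1 for the lists, with Y-linked libraries only, and the sum without Sox11 were added after seeing the data.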

Additional observations from a re-analysis of the deposited data

Results flagged for a closer look

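DKO replicate 1 lay far from the other DKO libraries, measured by its gap to the nearest of them over the range of the group, for 7 of the 9 genes and for their sum. Its normalized counts were 98.8 for Sox2, against 1.22 to 9.30 in the other 3, and 10110 for Sox11, against 1238 to 1475. They were 533 for Tubb3, against 121 to 186, and 387 for Elavl4, against 62.8 to 92.8. For the scarce genes they were 106 for Stmn2, against 0 to 16.7, 124 for Elavl3, against 0 to 11.5, and 365 for Sox10, against 3.49 to 8.55. The sum of the 9 genes was 14340, against 2157 to 2920. Nes and Dcx did not meet this criterion, and no WT library did for any of the genes. Such a gap also arises by chance in a small share of groups, and these 7 genes come from the same library and are not independent. The cause was not tested.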

How the results depend on the processing

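Over all alternatives, the log2 fold changes of the 5 tested genes were positive in each one. Sox11 was called in every fit with replicates in both genotypes that gave it an adjusted p (log2 fold change 2.46 to 4.10). DESeq2 gave it none because of its outlying count. With Y-linked libraries only, where DKO has 1 library, the log2 fold changes were 2.53 for Sox11 and 4.74 for Dcx. Dcx was called in every fit with replicates in both genotypes that tested it, except the fit without WT replicate 4 (log2 fold change 4.47, adjusted p = 0.0641). Nes and Elavl4 were called in 3 fits each. Both were called by DESeq2 (1.03, adjusted p = 0.0162, and 1.71, adjusted p = 0.0227) and without DKO replicate 2 (1.23, adjusted p = 0.0339, and 1.98, adjusted p = 0.0488), Nes also with upper-quartile scaling (1.15, adjusted p = 0.0471), and Elavl4 also with at least 10 counts in every library (1.75, adjusted p = 0.0495). Tubb3 was called in none. The number of the 9 genes called higher was 4 with DESeq2, 3 with no low-count filter (Sox2 with adjusted p = 0.0431 being the addition), and from 1 (without WT replicate 4) to 4 (without DKO replicate 2) when a library was left out.

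Over all genes, the number called higher, 1076, was 1651 with DESeq2, 1867 without a fold threshold (lower, 1878 against 423) and 590 with Y-linked libraries only (lower, 1143), a fit in which the 1 DKO library is assumed to vary as WT does, and it ranged from 566 to 1148 when a library was left out (lower, from 243 to 521), with 566, 650 and 633 without WT replicates 1, 2 and 4. Upper-quartile scaling raised the median log2 fold change of all genes by 0.11, to 0.14, at which Tubb6 (-0.10) was at 0.01 and Ednrb, Gap43, Tnni1 and Ttn were added to the list genes called higher. With the replicate number as a replicate block 613 genes were called higher and 343 lower, and Sox11 (3.16, adjusted p = 0.031) and Dcx (4.63, adjusted p = 0.0176) were still called. Same-numbered samples did not deviate together (correlations of -0.07 to 0.036), and no sample correlated best with its own number, so the numbers were not treated as pairs. The 4 genes under the filter reached the count level it asks for in too few libraries for the main test.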
